A study of Homo sapiens with 6 samples.

Results

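The genes described here encode parts of the centrosome: the CEP family (symbols of CEP followed by a number), the 8 subunits of augmin (HAUS1 to HAUS8), and PCNT, CENPJ, CDK5RAP2, PLK4 and STIL. They were chosen by symbol among the protein-coding genes, by a rule that uses no measured value but was set with earlier results of these data known, and came to 49 of the 58884 gene IDs in the tables: 36 CEP genes, 8 HAUS genes and the 5 others. Total RNA of the human colorectal cancer cell line HCT116, an established line, had been sequenced 48 h after transfection with a pool of siRNAs against Matrin3, an RNA-binding protein of the nucleus (siMatrin3, 3 libraries), or with a non-targeting siRNA (siCTRL, 3 libraries). The pool was not tested as single siRNAs in these libraries, and all of them came from this single cell line. The study examined the mitotic spindle after loss of Matrin3, and the question put to the data was whether the transcripts of the organelle at the spindle poles moved with it.

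The centrosome is the main microtubule-organising centre of animal cells. It holds a pair of centrioles inside a matrix, the pericentriolar material, from which microtubules grow. New centrioles are built beside the old ones under the kinase PLK4 with its partner STIL, and are then elongated by CENPJ (also called CPAP) and its neighbours. The older centriole carries appendages that dock it to the membrane when it becomes the base of a cilium. Augmin sits on existing spindle microtubules and recruits the γ-tubulin ring complex so that new microtubules branch from them.

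MATR3 itself was examined first. Its transcript (ENSG00000015479) was at 72.4, 67.9 and 71.4 CPM in the siMatrin3 libraries, against 363, 343 and 330.2 CPM in the siCTRL libraries, and 20.4% of the siCTRL mean was left. Another annotated entry named MATR3 overlaps it on the same strand, and these values are those of the ID given alone. CPM here and below are counts scaled to the library total of the genes tested, that total being multiplied by the library's TMM factor. The libraries held 6007630 to 7414040 estimated counts in siMatrin3 and 4556658 to 8400412 in siCTRL. Mitochondrial genes took 9.80% to 11.6% of the counts in siMatrin3 and 9.03% to 10.2% in siCTRL. Genes annotated as small RNAs took 14.01% to 14.3% of the counts in siMatrin3 and 13.2% to 13.7% in siCTRL, and the TMM scaling factors were 0.961 to 0.989 in siMatrin3 and 1.02 to 1.04 in siCTRL, both without overlap. Of 9 colon epithelium markers 6 passed the count filter, and KRT19 and EPCAM were higher in siMatrin3. The filter kept 2 fibroblast, 0 blood, 3 neural and 2 multiciliated cell markers, with no call among them in either direction. With the replicate number as a block KRT8 was higher too and TUBB3 lower (edgeR adjusted p = 0.00789 and 0.0173). CDX1 and TEKT1 were at 0 in every library, as were 6 of 9 fibroblast and 2 of 7 blood markers. The summed level of the colon epithelium markers was 1800 to 1898 CPM in siMatrin3 and 1577 to 1724 CPM in siCTRL. The part of these markers and shares in the results below was not tested.

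All 49 genes were expressed at a level that could be tested, and where one moved it was mostly downward. On expected counts, by edgeR's quasi-likelihood test with Benjamini-Hochberg adjustment over all 14334 genes, 6 of the 49 fell (12.2%) and 0 rose, where 5.18% of all genes tested fell and 5.68% rose (5.61% and 6.35% of the protein-coding ones). The 6 were CEP97, CEP290, CEP135, CEP83, HAUS2 and CEP295. Their losses ran from 17.5% to 29.9% of the siCTRL mean. At an unadjusted p under 0.05, 16 of the 49 were lower and 3 higher, against 12.3% and 12.8% of all genes. The other members did not pass, but 35 of the 49 (71.4%) had a log2 fold change below 0, against 50.1% of all genes, and the median of the 49 was -0.13, against -0.00 over all genes. In bulk RNA, fewer cells in a given phase and less RNA per cell cannot be told apart.

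**Figure D1:**
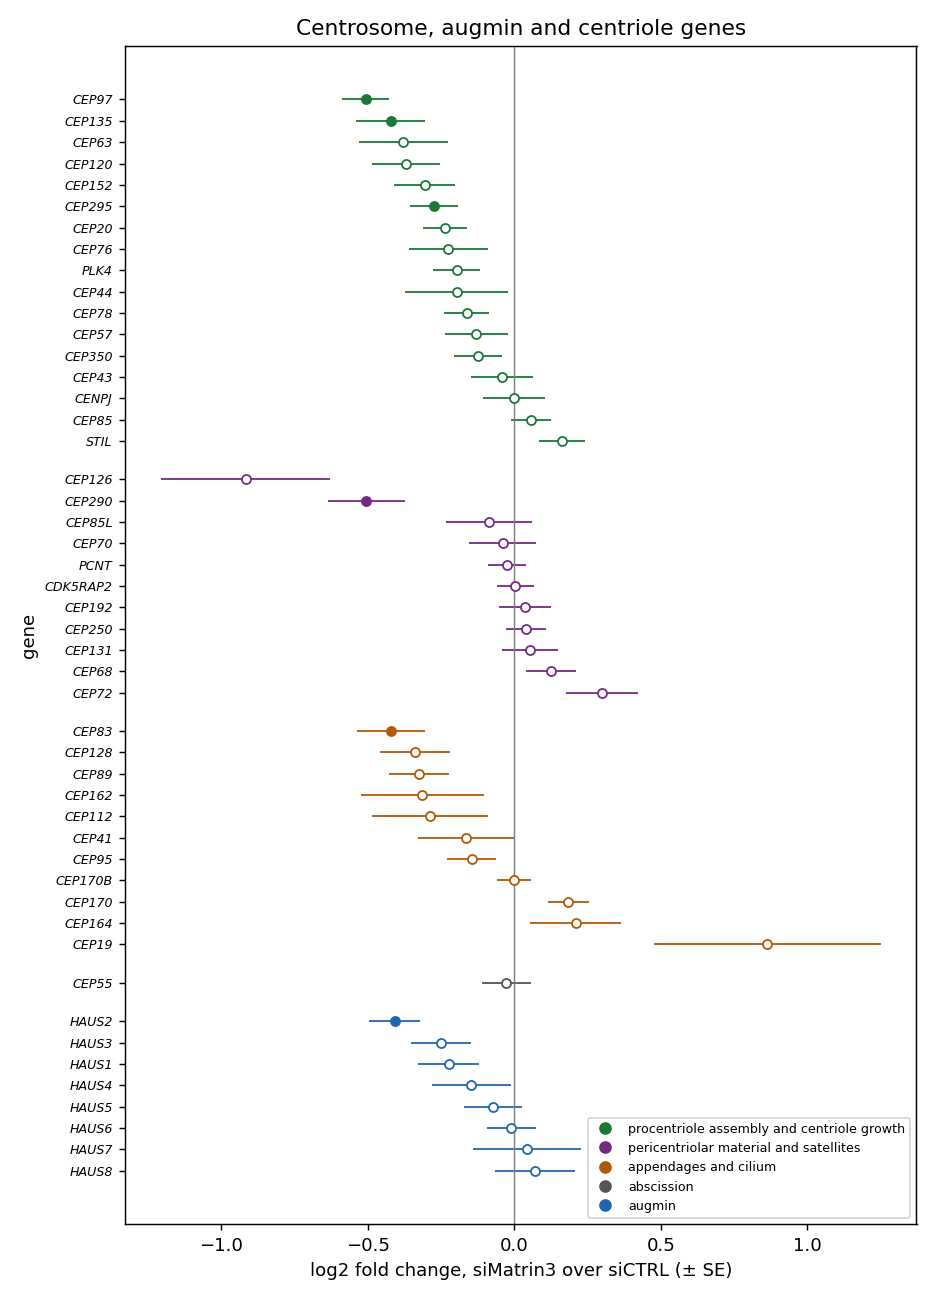
Log2 fold change of the 49 genes, 1 of them not drawn (x axis, siMatrin3 over siCTRL, points with bars of 1 SE) by gene (y axis), in colours by role; filled points passed an adjusted p of 0.05 by edgeR. The 6 filled points all lie left of 0, between -0.51 and -0.27, and CEP126 and CEP19 at the ends of the range have the widest bars.

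The spread of the 49 was from -0.92 (CEP126) to 0.86 (CEP19) on the log2 scale, and both of these ends rest on few reads. Mean counts per library ran from 14.9 for CEP19 to 721 for CEP170B, and 47 of the 49 averaged at least 5 CPM. The SE of the log2 fold change was 0.10 in the median gene and 0.06 to 0.39 over all. On the CPM scale the siMatrin3 and siCTRL libraries did not overlap for 18 genes, 16 of them lower and 2 higher (CEP170 and CEP72), where 14.7% of all genes were lower without overlap and 15% higher.

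With the replicate number as a block, 10 of the 49 fell and 1 rose, against 7.37% and 8.39% of all genes. The added falls were CEP20 (adjusted p = 0.0289), CEP126 (0.0463), CEP89 (0.0490) and CEP120 (0.0498), each by edgeR, which without the block had 0.0591, 0.0587, 0.0607 and 0.0585 in the same order. The 1 rise was CEP170 (0.0416 with the block and 0.117 without).

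Of the 17 genes of centriole assembly, 15 had a log2 fold change below 0, 3 fell past the threshold (5 with the replicate block), 0 rose, and the median was -0.20. Over all genes tested 50.1% were below 0, 5.18% fell, 5.68% rose and 14.7% were lower without overlap on CPM. With the replicate block 7.37% fell and 8.39% rose. These shares hold beside each of the role counts. The role groups were not compared with each other by a test. In 8 of the 17 every siMatrin3 library was below every siCTRL library.

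CEP97, which works with CCP110 to cap the growing end of the centriole and hold back its elongation and the outgrowth of a cilium, had the lowest p of the 49. It lies on chr3:101724534-101770562 (hg38, plus strand, 11 exons) and overlaps no other annotated gene. It was at 33.5, 32.7 and 30.1 CPM in the siMatrin3 libraries, against 44.02, 46.8 and 45.8 CPM in the siCTRL libraries. The groups were far apart for their spread, with means of 32.1 ± 1.77 and 45.5 ± 1.40 CPM (SD, n = 3 each). In the edgeR fit its log2 fold change came to -0.51 ± 0.08 (SE), adjusted p = 0.00177, and the call held whichever library was left out (0.00523 to 0.0130). CCP110, its partner, which is not among the 49, fell as well, with 44.7 ± 1.27 CPM in siMatrin3 and 57.9 ± 3.46 CPM in siCTRL (log2 fold change -0.37, edgeR adjusted p = 0.00846).

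The CEP97 promoter is shown because the gene passed in every fit with a library left out. It is RefSeq's (GRCh38.p14), from 250 bases before to 50 bases after the start used there, and the capitals mark CCAAT on both strands, which share 2 bases. For CEP97, and for HAUS2 below, that start is not the first base of the hg38 gene position given in the text. Below it stands a stretch of the 3′ UTR (hg38, GENCODE release 44) with the word AAGACTA in capitals, which is taken up again with the 3′ UTRs.

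CEP97 promoter, chr3:101724364-101724663, plus strand: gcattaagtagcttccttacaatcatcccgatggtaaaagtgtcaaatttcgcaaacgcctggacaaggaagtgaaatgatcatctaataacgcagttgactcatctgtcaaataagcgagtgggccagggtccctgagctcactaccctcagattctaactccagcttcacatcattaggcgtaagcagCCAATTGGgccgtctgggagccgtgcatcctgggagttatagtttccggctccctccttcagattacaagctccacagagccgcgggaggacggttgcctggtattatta

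CEP97 3′ UTR, chr3:101770148-101770174, plus strand: ccgagtagctAAGACTAcaggcacacg

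CEP135, a component of the cartwheel and inner wall of the centriole, was at 17.6, 17.4 and 16.5 CPM in siMatrin3, against 25.5, 20.6 and 23.8 CPM in siCTRL. In the edgeR fit its log2 fold change came to -0.42 ± 0.12 (SE), adjusted p = 0.0355. Its siCTRL libraries were the more scattered of the groups. The call held when siCTRL replicate 2 was left out (0.0291) and was lost when any other library was (0.0674 to 0.121). CEP295, needed for new centrioles to mature into centrosomes, was at 49.5, 55.9 and 48.5 CPM in siMatrin3, against 67.3, 59.4 and 59.9 CPM in siCTRL. Its fall was the smallest of the 6 (log2 fold change -0.27 ± 0.08, edgeR adjusted p = 0.0480), and it passed only without siMatrin3 replicate 2 (0.0321), with 0.0752 to 0.161 without any of the others. With its effective length as an offset the log2 fold change of CEP295 was -0.05 (edgeR adjusted p = 0.936), and on log2(TPM + 1) the difference was -0.14 with overlap between the groups. The CEP295 span overlaps TAF1D on the other strand and SCARNA9 on the same strand, neither of which passed (adjusted p = 0.607 and 0.685 by edgeR).

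The kinase and scaffold at the start of centriole duplication did not pass. PLK4, the kinase that sets centriole number, was at 38.3, 37.3 and 38.8 CPM in siMatrin3, against 47.0, 41.8 and 43.0 CPM in siCTRL. The groups did not overlap, but the loss of 13.3% gave a log2 fold change of -0.20 ± 0.08 (SE, edgeR adjusted p = 0.142). STIL, the scaffold that PLK4 phosphorylates, was at 87.0, 89.3 and 92.6 CPM in siMatrin3, against 88.5, 72.1 and 81.7 CPM in siCTRL, so that 1 siCTRL library lay among the siMatrin3 values (log2 fold change 0.16 ± 0.08, edgeR adjusted p = 0.217). CENPJ, which brings tubulin to the growing centriole, was at 34.4, 37.8 and 28.9 CPM in siMatrin3, against 35.8, 31.5 and 34.3 CPM in siCTRL. Its log2 fold change was -0.00 ± 0.11 (SE, edgeR adjusted p = 0.998).

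Of the other genes of this role, CEP152 and CEP63, which form the ring that recruits PLK4, had log2 fold changes of -0.31 and -0.38 with no overlap between the groups on CPM, but did not pass (adjusted p = 0.0799 and 0.138 by edgeR). CEP120, a partner of CENPJ in elongation, had -0.37 (0.0585) and CEP20 had -0.24 (0.0591). The remaining 9, which are CEP43, CEP44, CEP57, CEP76, CEP78, CEP85 and CEP350 beside CENPJ and STIL, ran from -0.23 to 0.16 and overlapped on CPM.

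**Figure D2:**
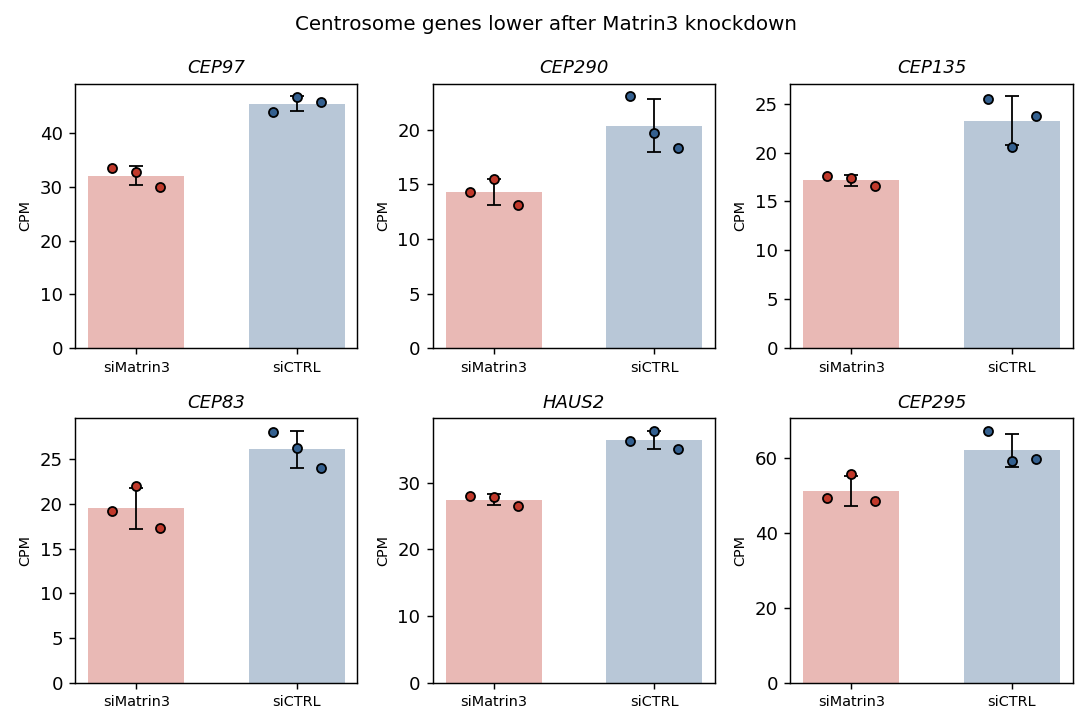
CPM (y axes, each from 0) of the 6 genes that passed the threshold, in siMatrin3 (red, left) and siCTRL (blue, right); dots are the 3 libraries, bars the mean and error bars the SD. In each of the 6 panels the highest siMatrin3 library lies below the lowest siCTRL library, with the widest gaps in CEP97 and HAUS2.

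Of the 11 genes of the pericentriolar material and of the satellites, the granules that carry proteins to the centrosome, 5 were below 0, 1 fell (2 with the replicate block) and 0 rose, and the median was 0.00. PCNT (pericentrin), the large scaffold of the matrix, was at 104, 99.9 and 105 CPM in siMatrin3, against 103, 101 and 112 CPM in siCTRL. CDK5RAP2, which anchors the γ-tubulin ring complex in it, was at 101, 99.8 and 95.1 CPM in siMatrin3, against 99.9, 93.9 and 102 CPM in siCTRL. Both groups overlapped in both genes. The log2 fold changes were -0.03 ± 0.06 for PCNT and 0.00 ± 0.06 for CDK5RAP2 (SE, edgeR adjusted p = 0.853 and 0.981). CEP192, which brings PLK4 and Aurora A to the centrosome, had 0.04 (adjusted p = 0.851 by edgeR), and CEP250, the linker that holds the centrioles together, also had 0.04 (0.773). CEP85L, CEP70, CEP131 and CEP68 ran from -0.09 to 0.13 with overlap between the groups.

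The gene of this role that fell was CEP290, a protein of the satellites and of the gate at the base of the cilium. It lies on chr12:88049016-88142099 (hg38, minus strand, 54 exons). It was at 14.3, 15.5 and 13.1 CPM in siMatrin3, against 23.1, 19.7 and 18.3 CPM in siCTRL, a loss of 29.9%. In the edgeR fit its log2 fold change came to -0.51 ± 0.13 (SE), adjusted p = 0.0253. It passed without siMatrin3 replicate 2 (0.0320) or siCTRL replicate 3 (0.0444) and not without any of the others (0.0608 to 0.0925). C12orf29, which overlaps it on the other strand, did not pass (0.506).

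A coding stretch of 150 bases (hg38, GENCODE release 44) is shown with G and C in capitals, to set beside a stretch of CEP170B, since GC content enters the results. It holds 35.3% G and C.

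CEP290 exon 26, chr12:88102862-88103011, minus strand: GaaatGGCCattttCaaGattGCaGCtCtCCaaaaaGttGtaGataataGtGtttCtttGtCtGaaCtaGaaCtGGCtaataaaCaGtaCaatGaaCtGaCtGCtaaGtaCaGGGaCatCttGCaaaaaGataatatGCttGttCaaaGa

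CEP126, a protein of the satellites, had the largest fall of the 49 in size and did not pass; it is given here after its values were seen. It was at 3.29, 4.18 and 2.18 CPM in siMatrin3, against 4.96, 6.82 and 6.16 CPM in siCTRL (log2 fold change -0.92 ± 0.29, edgeR adjusted p = 0.0587). The groups did not overlap, but a library held about 30 reads of it (mean 29.7). It passed without siMatrin3 replicate 2 (0.0447) and had up to 0.190 without the others. Beside CEP290 and CEP126, the groups did not overlap in CEP72, which recruits satellites and was higher in siMatrin3 (log2 fold change 0.30, edgeR adjusted p = 0.144).

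Of the 12 genes of the appendages and of the cilium, 8 were below 0, 1 fell and 0 rose (2 and 1 with the replicate block), with a median of -0.15. The 1 was CEP83, a protein of the distal appendages that dock the older centriole to the membrane. It was at 19.2, 21.9 and 17.3 CPM in siMatrin3, against 28.1, 26.2 and 24.0 CPM in siCTRL, so that the groups lay apart but each spread over several CPM. In the edgeR fit its log2 fold change came to -0.42 ± 0.12 (SE), adjusted p = 0.0335, and it passed without siMatrin3 replicate 2 (0.0235) but not without any of the others (0.0583 to 0.127). CEP89 and CEP164, also of the distal appendages, had -0.33 (0.0607) and 0.21 (0.444), and CEP128 of the subdistal appendages had -0.34 (0.0904). PLXNC1, which overlaps CEP83 on the other strand, had -0.56 (0.234).

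Neither CEP170, of the subdistal appendages, nor its paralogue CEP170B passed in the main edgeR fit, which has no replicate block. CEP170, which has a pseudogene copy that could share its reads, had 0.18 ± 0.07 (SE, adjusted p = 0.117 by edgeR, and 0.0416 with the block) and CEP170B -0.00 ± 0.06 (0.989). CEP19, which takes part in the start of ciliation, had the highest log2 fold change of the 49, 0.86 ± 0.39 (0.181), from 3.43, 1.74 and 3.59 CPM in siMatrin3 and 1.08, 1.998 and 1.58 CPM in siCTRL. These ranges overlap, and its values are named after they were seen. CEP55, which acts at the midbody when daughter cells part, was at 77.9 ± 8.54 CPM in siMatrin3 and 79.7 ± 4.03 CPM in siCTRL (SD, n = 3 each). CEP162, CEP112, CEP41 and CEP95 ran from -0.31 to -0.14 and overlapped on CPM.

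The stretch of CEP170B, of the same length, holds 66.7% G and C, again in capitals.

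CEP170B exon 8, chr14:104883130-104883279, plus strand: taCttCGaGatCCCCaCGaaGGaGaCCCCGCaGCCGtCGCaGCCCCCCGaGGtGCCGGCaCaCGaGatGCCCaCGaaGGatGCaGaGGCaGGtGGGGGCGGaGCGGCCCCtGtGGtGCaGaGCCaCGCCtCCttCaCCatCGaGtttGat

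Augmin works as 1 complex of 8 subunits, of which HAUS2 alone passed. On the log2 scale 6 of the 8 were below 0, 0 rose, and the median was -0.11. HAUS2 lies on chr15:42548828-42569994 (hg38, plus strand, 6 exons). It was at 28.0, 27.9 and 26.5 CPM in siMatrin3, against 36.3, 37.7 and 35.05 CPM in siCTRL. The libraries of each group stood close together, with means of 27.5 ± 0.816 and 36.3 ± 1.34 CPM (SD, n = 3 each). In the edgeR fit its log2 fold change came to -0.41 ± 0.09 (SE), adjusted p = 0.00869, and like CEP97 it passed whichever library was left out (0.0204 to 0.0442).

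The HAUS2 sequences are shown for the same reason and in the same way. In the promoter the capitals mark GCGGGAA, the reverse complement of TTCCCGC, and TTGGCGC, which resemble the elements of E2F factors in genes of the cell cycle, and in the 3′ UTR they mark GAAGACT.

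HAUS2 promoter, chr15:42548588-42548887, plus strand: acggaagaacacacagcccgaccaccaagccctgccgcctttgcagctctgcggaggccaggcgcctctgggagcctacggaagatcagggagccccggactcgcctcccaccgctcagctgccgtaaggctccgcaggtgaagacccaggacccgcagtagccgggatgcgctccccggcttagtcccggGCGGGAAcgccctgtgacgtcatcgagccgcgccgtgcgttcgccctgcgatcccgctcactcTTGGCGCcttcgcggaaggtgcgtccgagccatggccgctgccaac

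HAUS2 3′ UTR, chr15:42569618-42569644, plus strand: cttaacacaaGAAGACTtcaacaatga

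HAUS1 was at 20.0, 20.9 and 21.8 CPM in siMatrin3, against 23.3, 25.9 and 23.6 CPM in siCTRL. HAUS3 was at 22.6, 28.0 and 25.7 CPM in siMatrin3, against 31.3, 28.9 and 30.6 CPM in siCTRL. Neither overlapped between the groups and neither passed, with log2 fold changes of -0.22 and -0.25 (adjusted p = 0.194 and 0.140 by edgeR). HAUS4 was at 16.2, 17.6 and 13.4 CPM in siMatrin3, against 16.2, 17.0 and 18.8 CPM in siCTRL. HAUS5 was at 24.7, 24.0 and 23.4 CPM in siMatrin3, against 27.6, 24.6 and 24.1 CPM in siCTRL. Both overlapped (log2 fold changes -0.15 and -0.07). HAUS6, which contacts the γ-tubulin ring complex through NEDD1, was at 102, 103 and 83.7 CPM in siMatrin3, against 104, 96.9 and 90.0 CPM in siCTRL. HAUS7 was at 16.5, 9.75 and 13.7 CPM in siMatrin3, against 12.9, 14.6 and 11.3 CPM in siCTRL. HAUS8, which binds the microtubule, was at 21.4, 22.8 and 20.1 CPM in siMatrin3, against 22.0, 22.9 and 15.8 CPM in siCTRL. These 3 had log2 fold changes of -0.01, 0.04 and 0.07 and overlapped throughout. The HAUS7 span overlaps TREX2 on the same strand, so that reads of the pair may be divided by estimate, and the same holds for HAUS3 with POLN.

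**Figure D3:**
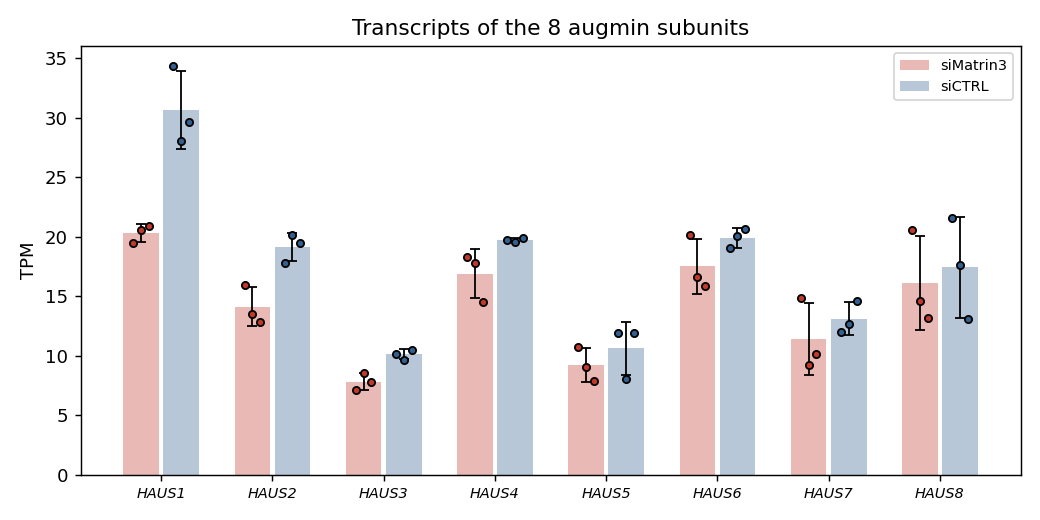
TPM (y axis, from 0) of the 8 augmin subunits (x axis) in siMatrin3 (red, left of each pair) and siCTRL (blue, right); dots are libraries, bars the mean and error bars the SD. HAUS1 shows the widest gap on this scale, with 20.3 ± 0.772 TPM in siMatrin3 and 30.7 ± 3.27 TPM in siCTRL, and HAUS5 to HAUS8 overlap.

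TPM values, which the authors' program scales by estimated transcript length, gave fewer calls. By limma on log2(TPM + 1), 0 of the 49 passed in either direction, where 0.153% of the 16359 genes tested were lower and 0.116% higher. At an unadjusted p under 0.05, 14 were lower and 0 higher, against 12% and 3.66% of all genes. The scale understates the change of genes with low TPM. The difference was below 0 in 42 of the 49 (85.7%), against 65.3% of all genes, with a median of -0.18 against -0.09. The groups did not overlap on TPM in 20 genes, all of them lower, where 16.4% of all genes were lower without overlap and 5.21% higher.

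The lowest p on TPM belonged to HAUS1, at 19.4, 20.6 and 20.9 TPM in siMatrin3, against 34.3, 28.0 and 29.6 TPM in siCTRL (difference of log2 values -0.57 ± 0.10, SE, adjusted p = 0.0790 by limma). The next was CEP152, at 5.98, 5.77 and 6.16 TPM in siMatrin3, against 8.65, 12.2 and 13.3 TPM in siCTRL (-0.81 ± 0.17, adjusted p = 0.102 by limma). Both had moved less on counts, and they are taken here for these p-values.

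The 2 scales differ by the effective length that RSEM assigned to a gene, an average over its isoforms weighted by their estimated abundance. They also differ by TMM scaling, which TPM lacks, and the median over all genes was -0.09 on TPM and -0.00 on counts. Across the 49 genes, the TPM difference minus the count fold change went with the difference in log2 effective length (Pearson's r = -0.81, Spearman's rho = -0.85, n = 49 genes measured in the same 6 libraries). TPM is computed from counts and effective length, so this relation follows largely from how the scales are built and is no separate result. The fold changes on the 2 scales had r = 0.77 and rho = 0.79. Effective length in siMatrin3 was 4448, 5047 and 3785 bases for CEP152, against 4487, 2613 and 2696 bases in siCTRL. For CEP350, which anchors microtubules at the centriole, it was 6721, 5778 and 7617 bases in siMatrin3, against 8228, 9599 and 9854 bases in siCTRL. By limma on log2 effective length 0 of the 49 passed, as did 0 of the 12248 genes tested in either direction (background 0% lower and 0% higher). At an unadjusted p under 0.05, CEP350 was shorter (-0.47, adjusted p = 0.620 by limma) and STIL longer (0.18, adjusted p = 0.690 by limma), against 3.94% and 2.73% of all genes. With effective lengths as an offset in the count test, CEP152 alone of the 49 passed (log2 fold change -0.82, edgeR adjusted p = 0.0365), where 0.733% of all genes were lower and 0.691% higher.

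**Figure D4:**
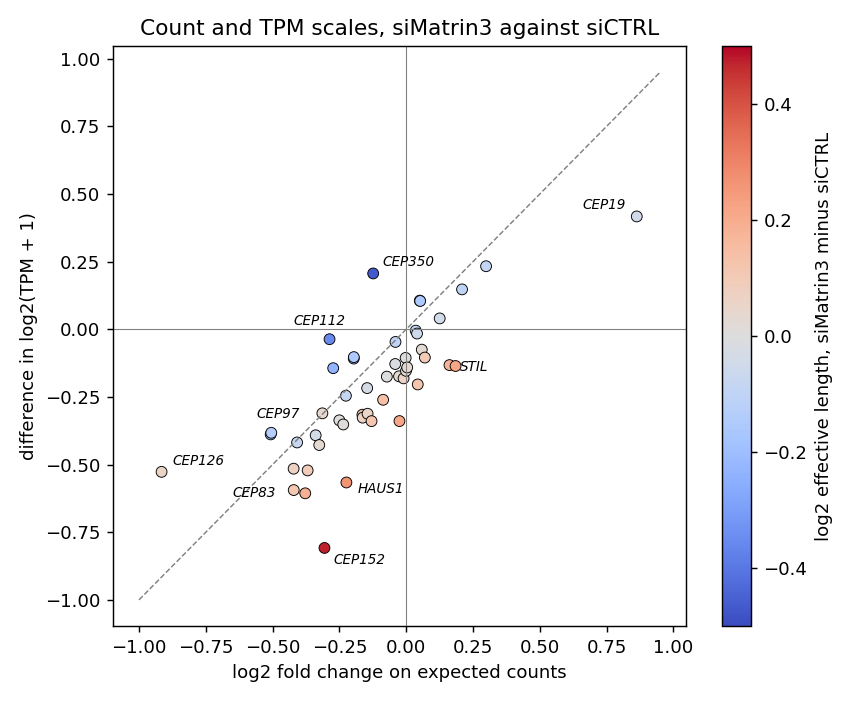
Log2 fold change on expected counts (x axis) against the difference in log2(TPM + 1) (y axis) for the 49 genes, siMatrin3 against siCTRL, coloured by the difference in log2 effective length; the dashed line marks equal values. CEP152, with a longer effective length in siMatrin3 (red, 0.48), lies below the line, and CEP350, with a shorter one (blue, -0.47), above it. Not every gene follows this order, since CEP72 (-0.09) lies below the line and CEP126 (0.06) above it.

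Levels were compared between genes on TPM, which allows for length. In siMatrin3 the means ran from 0.800 TPM for CEP126 to 34.4 TPM for CEP95, and in siCTRL from 0.770 TPM for CEP19 to 43.7 TPM for CEP95. CEP95, CEP55 and CEP20 were the highest 3 in both groups, with 34.4 ± 2.57, 29.2 ± 3.46 and 24.5 ± 2.27 TPM in siMatrin3 and 43.7 ± 9.91, 33.0 ± 3.43 and 31.5 ± 2.77 TPM in siCTRL (SD, n = 3 each), and the ranges of neighbours in this order overlapped in both groups. CEP162, CEP126 and CEP19 were the lowest 3 in both.

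The choice by symbol used no feature of the transcripts. Their GC content had a median of 41.5% and ran from 34.6% to 66.3%, against a median of 48.6% over the 12177 protein-coding genes tested, and the median gene had 17 exons against 9, over spans of 49.8 kb against 33.9 kb. The coding stretches of CEP290 and CEP170B above, at 35.3% and 66.7% G and C, show the range.

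Fold change went with GC content in these libraries, among the 49 (r = 0.44, rho = 0.60, n = 49) and over all protein-coding genes (r = 0.20, rho = 0.23, n = 12177). The points share their 6 libraries. When the protein-coding genes were divided into 5 equal bins by GC content, 20 of the 49 were in the lowest bin (30.7% to 40.7%). All 20 were below 0 there, against 61.9% of the bin's 2436 genes. Their median was -0.24, against -0.07 for the bin, and 5 of the 6 genes that fell were among them, where 9.77% of the bin fell. In the other bins the members' medians were -0.08, 0.03, 0.06 and 0.04, over 14, 6, 6 and 3 genes.

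With the trend on GC content removed from each library as an offset, an alternative added after the data were seen, 3 of the 49 fell and 1 rose, against 4.93% and 5.87% of all genes. The 3 were CEP97 (log2 fold change -0.43, adjusted p = 0.00488), HAUS2 (-0.36, 0.0162) and CEP290 (-0.42, 0.0433), and the 1 was CEP170 (0.24, 0.0394), all by edgeR. CEP83 (-0.35, 0.0555), CEP135 (-0.34, 0.0762) and CEP295 (-0.21, 0.0953) did not pass. The median of the 49 was then -0.10, and that of the 20 in the lowest bin -0.18 against 0.00 for the bin. With the offset and the replicate block together, 6 fell and 2 rose, against 7.44% and 9.32% of all genes: CEP97, HAUS2, CEP290, CEP83, CEP135 and CEP89 fell, and CEP170 and STIL rose.

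**Figure D5:**
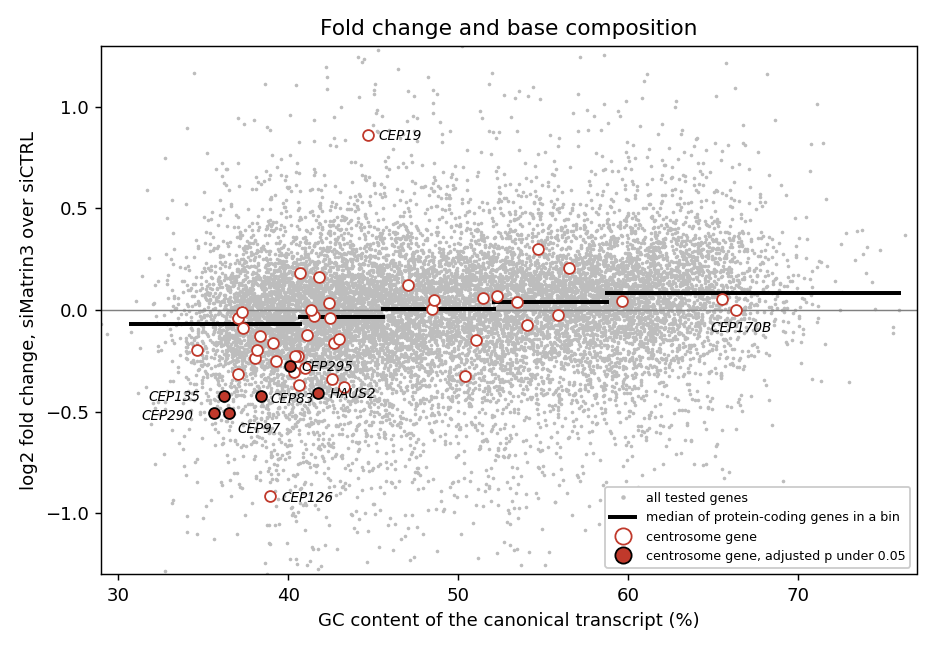
Log2 fold change (y axis, siMatrin3 over siCTRL, drawn from -1.3 to 1.3) against GC content of the canonical transcript (x axis, percent) for all tested genes (grey) and the 49 centrosome genes (red, filled where the adjusted p was under 0.05); black bars are the medians of protein-coding genes in 5 bins. Every red point in the leftmost bin lies below 0, and the black bars climb by steps from -0.07 to 0.08.

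Promoters of 44 of the 49 genes were matched by symbol, those of the 6 that fell among them, and 6 motifs were searched on both strands. CCAAT was in 22 of the 44 and in 39.7% of all 27305 promoters (43.5% of those of tested protein-coding genes). TTTGAA, the core of the CHR element of cell cycle genes, was in 17, against 18.2% (13.5%), and its variant TTCGAA in 0, against 1.82% (2.36%). TTCCCGC was in 15, against 7.82% (13.1%), TTCGCGC in 4, against 2.75% (5.16%), and TTGGCGC in 7, against 3.66% (6.25%). Of the 6 genes that fell, 3 held CCAAT, 3 TTTGAA, 2 TTCCCGC and 1 TTGGCGC. A match is a run of letters in the window and no evidence of binding.

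The 3′ UTRs were searched for 4 words of 7 bases that earlier work on these data had drawn attention to. GAAGACT or AAGACTA stood in 13 of the 49 genes (26.5%), against 18.4% of 12134 protein-coding genes, 39.9% of those that fell and 14.5% of those that rose. Because of how the words were chosen, the shares among genes that fell or rose, here and below, are no separate result. CEP97 and HAUS2 were among the 13, with the sites shown where those genes are described.

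The 13 carriers had a median log2 fold change of -0.12 and the other 36 members -0.14, and 2 of the 13 and 4 of the 36 fell. For any of the 4 words the medians were -0.14 in 18 carriers and -0.13 in 31 others. These gaps were not tested. ATTACAA or TTACAAA stood in 9 of the 49 (18.4%), none of which passed, against 25.7% of all, 33.1% of those that fell and 41.1% of those that rose. When carriers of any of the 4 words were left out of the fit, 31 members remained, of which CEP83, CEP135 and CEP290 fell and 0 rose, where 2.99% of the 10014 genes of that fit fell and 3.06% rose.

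Other genes of the same pathways were counted from lists, with the 3 lowest p-values in each named. Over all genes tested 5.18% fell and 5.68% rose, or 7.37% and 8.39% with the replicate block, and 50.1% were below 0. These shares hold beside the counts of every list, those of the cell cycle included. Of 14 genes of the γ-tubulin ring complex and its adaptors, 1 fell and 0 rose, and the median was -0.02. The 1 was NEDD1, the adaptor through which augmin recruits the complex, with 46.1, 52.2 and 43.2 CPM in siMatrin3 and 64.3, 64.4 and 60.4 CPM in siCTRL (log2 fold change -0.42 ± 0.08, SE, edgeR adjusted p = 0.00548). The groups were well apart, and TUBGCP2 (0.19, 0.157) and TPX2 (0.10, 0.346) followed. Of 23 other centriole assembly genes, 2 fell and 0 rose, with a median of -0.04: CCP110 and POC1B, a protein of the centriole wall, with 12.9 ± 0.598 CPM in siMatrin3 and 19.6 ± 1.70 CPM in siCTRL (log2 fold change -0.60, edgeR adjusted p = 0.00876). PPP1R35 came after them (0.24, 0.334).

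Of 29 further appendage, linker and satellite genes that could be tested of 30, 1 fell, CCDC14 of the satellites (log2 fold change -0.26, edgeR adjusted p = 0.0369), and 0 rose. The median was -0.12, and 22 of the 29 were below 0. MIB1 (0.21, 0.0556, and 0.0145 with the replicate block) and FAM161A (-0.41, 0.0658) followed. Of 12 mitotic kinases and partners at the pole, NEK6 fell (-0.44, adjusted p = 0.0110 by edgeR) and 0 rose, with a median of 0.07, and NEK9 (0.20, 0.0712) and PLK1 (0.19, 0.0734) were next. With the replicate block 3 of the 12 rose, which were NEK9, PLK1 and NEK7.

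Transcripts of the phases of the cell cycle were set beside these, since many centrosome genes are expressed in S and G2. Of 24 transcripts of G2 and M phase, 1 fell, the kinesin CENPE (-0.50, adjusted p = 0.0250 by edgeR), and 0 rose (PLK1 and MKI67 with the replicate block), and the median was 0.06. PLK1 and MKI67 (0.14, 0.0963) came next. Of 21 transcripts of G1 and S phase, 4 fell and 5 rose (6 with the replicate block, MCM4 being added), led by RRM2 (-0.38, 0.000299), MCM5 (0.36, 0.00124) and CCNE2 (-0.84, 0.00278). By staining and flow cytometry, the study reported an unchanged cell cycle in HCT116 after Matrin3 knockdown. Whether the share of cells in a phase had a part in the values of the 49 was not tested.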

How the data were processed

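HCT116 RNA was analysed in 3 siMatrin3 and 3 siCTRL libraries. The study's methods describe ribosomal RNA depletion and a directional kit with single-end reads, whereas the labels name a stranded mRNA kit. In those methods the 48 h time and TopHat belong to the depleted total RNA, and STAR to poly(A) capture. The libraries are therefore described here as total RNA, but which kit was used was not settled. Per the labels, the authors used cutadapt, TopHat and RSEM on hg19. The deposited expected counts are RSEM's estimated reads per gene, not normalized. The deposited TPM values were scaled by RSEM within each library. The deposited effective lengths, in bases, are an unscaled measure of another kind, and FPKM values were left aside. Neither the annotation release nor the strand setting of the count is given in the sources used here, so that values of overlapping genes and near-identical copies are uncertain.

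Gene IDs were matched to GENCODE release 44 (99.3% of 58884), and positions are those of hg38, since the tables hold none. Expected counts were rounded. Genes were kept by filterByExpr (minimum count 10, minimum total 15), scaled by TMM and tested with edgeR 4.0.16 (R 4.3.3), two-sided at an adjusted p of 0.05. TPM was tested as log2(TPM + 1) for a mean TPM of at least 1, and log2 effective length likewise, with limma 3.58.1. For a single value an exact permutation test of 3 against 3 libraries gives no p under 0.1. Depth was 4556658 to 8400412 estimated counts per library, and the biological coefficient of variation was 6.44%. Libraries of a group differed by more than sampling noise (chi-square over its degrees of freedom, 2.62 to 4.37), so that none was taken as a duplicate. Nothing beyond the study's mention of biological triplicates says how the cultures were separated, and p-values measure the spread between these libraries of 1 cell line.

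Same-numbered libraries deviated weakly together (correlations 0.107, 0.104 and 0.157, all others below 0), so that the replicate numbers may pair the samples. The deviations within a group sum to 0, which by itself presses the other correlations below 0. Whether the samples were paired was not tested, and the block was run as an alternative. Blocked counts and calls stand beside those they change. Alternatives were RLE and upper quartile scaling, other filters, effective lengths as an offset, the block, DESeq2 1.42.0, TPM, an adjusted p of 0.01 and leaving out each library. A GC offset (per-library lowess, span 0.3), the same with the block, and a fit without carriers of the 3′ UTR words were added after the data were seen. The members, role groups, lists, motifs and words were chosen with earlier results of these data known. Values per library are given for MATR3, the members past a threshold, PLK4, STIL, CENPJ, PCNT, CDK5RAP2 and HAUS1 to HAUS8, and for others only where said to be picked after their values were seen. CEP152, CEP350, CEP95, CEP55, CEP20, NEDD1, PLXNC1, KRT8, TUBB3, NEK7 and MCM4 were picked in this way too. The single values of 1 of the 49 members are not reported here, and it stays in the counts and medians. The edgeR steps were tested on simulated data.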

Additional observations from a re-analysis of the deposited data

How the results depend on the processing

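The 6 falls among the 49 genes became 10 over protein-coding genes alone, 10 with the replicate block and 7 with no count filter. With a mean count of at least 30, 9 of the 47 members kept fell. There were 3 falls with the GC offset, 3 without carriers of the 3′ UTR words, 2 at an adjusted p of 0.01, 1 with effective lengths as an offset and 0 by limma on TPM. Leaving out 1 library gave 2 to 7. With siMatrin3 replicate 1, siMatrin3 replicate 3 or siCTRL replicate 1 left out, only HAUS2 and CEP97 passed, without siCTRL replicate 2 or siCTRL replicate 3 there were 3, and without siMatrin3 replicate 2 there were 7. With DESeq2 CEP135 and CEP295 did not pass (adjusted p = 0.0621 and 0.0555). The CEP295 log2 fold change also missed the threshold with RLE size factors (adjusted p = 0.0500051), with no count filter (0.0554) and with at least 1 CPM in 3 libraries (0.0561), by edgeR. The 0 rises became 1 with the block, 1 with the GC offset and 2 with both. Over all genes the 743 falls and 814 rises became 844 and 908 over protein-coding genes alone (12149 genes tested). There were 834 and 849 with a mean count of at least 30, and 874 and 1105 with no count filter. They became 105 and 99 with the length offset, 25 and 19 on TPM, 299 and 306 without carriers, and 295 and 294 at 0.01. With the GC offset and the block there were 1336 rises, and leaving out 1 library gave 357 to 625 falls and 350 to 631 rises. The median of the 49, -0.13, was -0.082 with the length offset, -0.18 on TPM and -0.18 to -0.061 with 1 library left out. Beyond the calls given with the report, the replicate block changed no call among the 49. The cause of these shifts was not tested.

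Members that passed on counts kept their sign in each of the count fits and on TPM with all libraries. Of the others, the log2 fold change of these changed sign. On TPM these were CDK5RAP2 (-0.14), CEP170 (-0.14), CEP192 (-0.0048), CEP250 (-0.016), CEP350 (0.21), CEP85 (-0.075), HAUS7 (-0.20), HAUS8 (-0.10) and STIL (-0.13). With the length offset these were CDK5RAP2 (-0.046), CEP112 (0.069), CEP170 (-0.034), CEP350 (0.35), CEP70 (0.054), HAUS7 (-0.083), HAUS8 (-0.012) and STIL (-0.034). With the GC offset, and with the block added, these were CENPJ (0.053 and 0.052), CEP131 (-0.054 and -0.045), CEP55 (0.026 and 0.021), CEP70 (0.036 and 0.039), HAUS6 (0.065 and 0.062) and HAUS7 (-0.0076 and -0.041), and CEP43 with the GC offset alone (0.0033). CDK5RAP2 was also below 0 with upper quartile scaling (-0.0035), a mean count of at least 30 (-0.0053), protein-coding genes alone (-0.00022) and without carriers (-0.0072). CENPJ was above 0 with no count filter (0.015), with at least 1 CPM in 3 libraries (0.00089), without mitochondrial and small RNA genes (0.00031) and with DESeq2 (0.0048), CEP170B with no filter (0.015) and with DESeq2 (0.0052), and HAUS6 with no filter (0.0069).

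With 1 library left out the log2 fold change ran from -0.031 to 0.029 for CDK5RAP2, -0.085 to 0.096 for CENPJ, -0.021 to 0.014 for CEP170B, -0.052 to 0.14 for CEP192, -0.098 to 0.074 for CEP43, -0.088 to 0.059 for CEP55, -0.12 to 0.031 for CEP70, -0.059 to 0.078 for HAUS6, -0.15 to 0.21 for HAUS7, -0.073 to 0.19 for HAUS8 and -0.058 to 0.020 for PCNT. The TPM difference ran from -0.32 to 0.013 for CEP295, -0.29 to 0.055 for HAUS8 and -0.28 to 0.096 for PLK4. With 3 libraries a group, the median SE was 0.10 on the log2 scale, and changes several times that size could be missed at this depth. In the main edgeR fit the smallest change that passed was -0.27 (CEP295), while -0.38 for CEP63 and -0.37 for CEP120 did not pass. Members without a call are therefore not shown to be unchanged.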
